A study of Mus musculus with 36 samples.

Results

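Mouse chromosome 17 was described through its replication timing (RT) domains in 3 domain maps, 1 of shLacZ CH12 cells, 1 of WT primary B cells and 1 named for WT mouse embryonic fibroblasts (MEFs). All domains with chromosome 17 in the first column were taken, which gave 93 domains in the CH12 map, 89 in the primary B map and 73 in the MEF map, or 255 of the 7437 domains of the 3 maps. Each map assigned 20 kb bins to an early (E), middle (M) or late (L) state. Earlier and later below mean a step between these states. The maps hold no RT values, so whether states were cut at the same RT values in each map is not known. The chromosome was selected on the measured agreement of both B cell maps, which was the highest of 19 autosomes, so that agreement is given here as a description and supports nothing. On chromosome 17, 80.8% of shared bins had the same state in CH12 and primary B cells, against 79.9% on chromosome 11, the next in order.

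Repli-seq was used to measure RT. Cells took up BrdU for 2 h and were sorted by DNA content into early and late S phase, after which the BrdU-containing DNA of both fractions was sequenced. The 36 libraries of the series form 7 groups, and 8 of these libraries lie behind the B cell maps. CH12 is a mouse B cell lymphoma line, here infected with a lentivirus expressing an shRNA against LacZ as the control for infection and kept, per the labels, with IL4, CD40 and TGF beta stimulation. The primary B cells were activated splenic B cells of *Rif1*+/+ mice, and no age or sex of the mice was given in the labels. The labels tie the MEF map to no sample, and the study lists MEF Repli-seq among published data, so differences that involve it can also hold differences between laboratories, which cannot be told apart from cell type. The replicates were merged before states were called. With 1 map per condition, no replicate error and no test could be given, and the depth is unknown. Wilson 95% intervals cover counting over bins only, and neighbouring bins are not independent.

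Replication timing divides chromosomes into megabase-scale stretches that are copied at a similar time in S phase. Early domains are usually gene-rich, GC-rich and transcriptionally active, whereas late domains are usually gene-poor and silent, and the timing of part of the genome differs between cell types. Chromosome 17 of the mouse carries the major histocompatibility complex (MHC), whose proteins present peptides to T cells, and large clusters of odorant, pheromone and zinc finger genes that arose by duplication.

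Because the states followed base composition, the windows from 250 bases before to 50 bases after the annotated start are printed for 3 genes, each the longest coding gene of the longest stretch in which the maps differed in a given way. They were read from the NCBIM37 (mm9) reference on the strand of the gene, and capitals mark the dinucleotide CG, which reads the same on both strands. *Satb1* (chr17:51972566-51972865, minus strand) lies where primary B cells were earlier than CH12, and *Supt3h* (chr17:44913851-44914150, plus strand) where they were later. *Rftn1* (chr17:50329950-50330249, minus strand) was early in both B cell maps and middle in MEFs.
*Satb1*: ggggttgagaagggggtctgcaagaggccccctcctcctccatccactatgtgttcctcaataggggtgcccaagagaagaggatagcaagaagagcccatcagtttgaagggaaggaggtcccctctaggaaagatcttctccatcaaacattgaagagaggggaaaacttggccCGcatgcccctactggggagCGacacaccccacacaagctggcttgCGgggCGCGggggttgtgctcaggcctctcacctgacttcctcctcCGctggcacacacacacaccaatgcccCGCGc
*Supt3h*: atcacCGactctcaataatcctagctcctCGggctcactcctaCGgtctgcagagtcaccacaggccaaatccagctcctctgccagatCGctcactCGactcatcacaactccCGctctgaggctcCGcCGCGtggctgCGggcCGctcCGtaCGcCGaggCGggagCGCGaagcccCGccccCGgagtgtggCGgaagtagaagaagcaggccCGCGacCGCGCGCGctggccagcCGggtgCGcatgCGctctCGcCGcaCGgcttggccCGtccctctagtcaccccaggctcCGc
*Rftn1*: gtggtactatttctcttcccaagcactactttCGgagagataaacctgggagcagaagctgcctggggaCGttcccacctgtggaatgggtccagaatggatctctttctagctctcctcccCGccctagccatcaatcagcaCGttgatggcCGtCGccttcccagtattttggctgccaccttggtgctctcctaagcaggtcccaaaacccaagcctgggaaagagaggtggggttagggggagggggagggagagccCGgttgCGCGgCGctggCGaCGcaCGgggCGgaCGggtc
The windows held 34 CG in *Supt3h*, 15 in *Rftn1* and 8 in *Satb1*. Over the 1091 protein-coding gene entries of the chromosome, 95.2% of such windows held at least 1 CG and the median was 11. The median was 16 over the 616 windows in bins early in all 3 maps and 1 over the 93 windows in bins late in all 3. Many of these 93 belong to olfactory and vomeronasal receptor genes, and no median was taken without them. *Supt3h*, E in CH12 cells and M in primary B cells, thus had more CG than the median window, and *Satb1*, E in primary B cells, had fewer. The 7 windows with the states of *Supt3h* (E, M and M) had a median of 2 and a maximum of 34, so *Supt3h* was the highest of them. The 82 windows with the states of *Rftn1* had a median of 8.5, and *Satb1* was the only window with its states.

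The first comparison concerned how the chromosome divides between states. Early bins made up 32.2% of the chromosome in CH12 cells (1532 of 4764 bins; Wilson 95% interval 30.8 to 33.5%), 35.1% in primary B cells (33.7 to 36.5%) and 35.1% in MEFs (33.8 to 36.5%). The early share over all 20 chromosomes was 22.7% in CH12 cells, 28.6% in primary B cells and 30.7% in MEFs, so chromosome 17 was above the genome in each map. Ordered by early share, it was number 2 of 19 autosomes in CH12 cells, 4 in primary B cells and 6 in MEFs. Late bins made up 44.5%, 36.0% and 28.1%, and middle bins 23.3%, 28.9% and 36.8%, in the same order of maps. The first 3 Mb, 150 bins made wholly of unknown bases, were called M in the CH12 and MEF maps and had no state in the primary B map. Without bins of unknown bases the early share was 33.3% in CH12 cells, 35.2% in primary B cells and 36.3% in MEFs. The middle share was then 20.7% in CH12 cells and 34.6% in MEFs.

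E and L domains touched in 0 places in each map, so an M domain always lay between them. This holds in part by construction, since the RT values of the B cell maps were smoothed with a span of 300 kb before states were called. For the MEF map this step is not given. In CH12 cells the chromosome had 20 E domains with a median of 1000 kb, 47 M domains of 320 kb and 26 L domains of 920 kb. Primary B cells had 22 E domains of 900 kb, 45 M domains of 380 kb and 22 L domains of 890 kb. MEFs had fewer and longer domains, with 19 E domains of 1260 kb, 37 M domains of 760 kb and 17 L domains of 980 kb. In CH12 cells 24 M domains separated E from L, 8 lay between E domains and 13 between L domains. The strips of the 3 maps show this order along the chromosome.

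**Figure D1:**
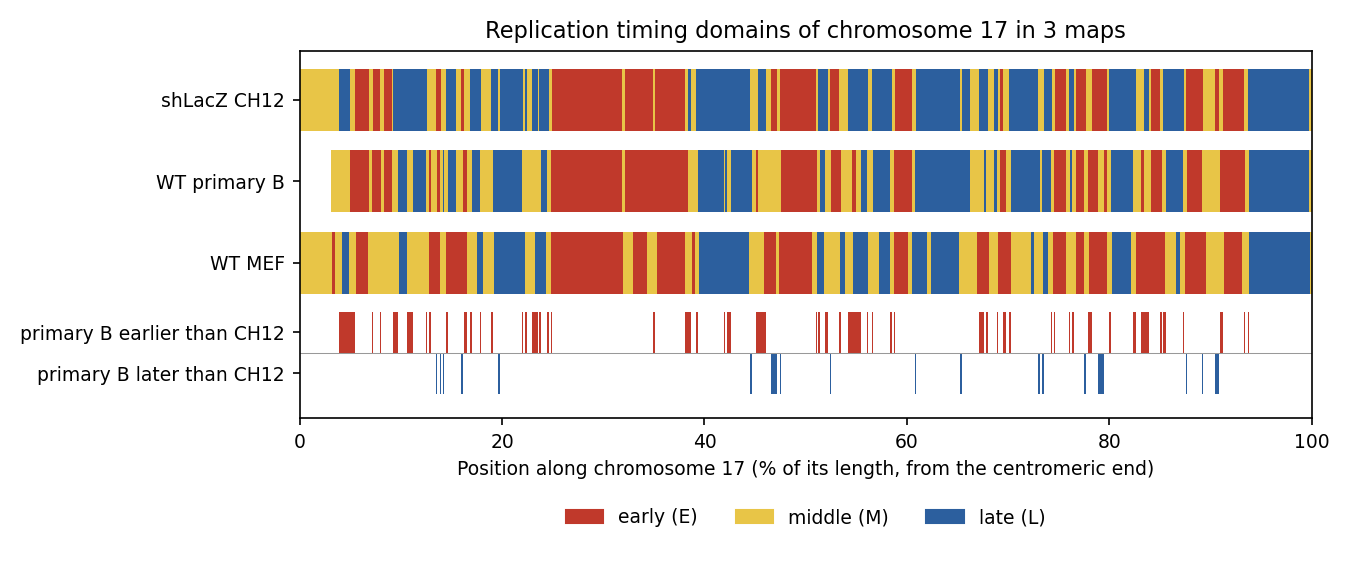
Domains of chromosome 17 in the 3 maps, with position as a percentage of chromosome length on the x axis and 1 strip per map coloured by state; the lower rows mark bins where primary B cells were earlier or later than CH12 cells. The longest E domain, which starts near 25% of the length, and the L domain at the distal end are shared by the 3 strips, and the runs of difference are short and lie mostly in the upper row (704 bins earlier, 180 later).

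The longest E domain had almost the same limits in each map. It ran over chr17:23720001-30380000 in CH12 cells (6660 kb), chr17:23660001-30360000 in primary B cells (6700 kb) and chr17:23640001-30420000 in MEFs (6780 kb). The core of 6640 kb that was early in all 3 maps held 213 coding gene starts, from *Zfp13* to *Zfand3*, at 49.3% GC. The ends of the domain in the primary B map were *Gm5146* and *Zfand3*. The second longest E domain of primary B cells, chr17:30660001-36540000 (5880 kb, *Btbd9* to *H2-M10.3*), held most of the MHC. It had the starts of all 9 listed MHC class II entries and of 16 of 25 class I entries. In CH12 cells and MEFs this stretch was broken by M domains, and the part over the class II genes was an E domain of 2840 kb in CH12 cells and of 2660 kb in MEFs. The other E domain among the 3 longest of primary B cells ran over chr17:45360001-48680000 (3320 kb, *Cdc5l* to *Unc5cl*), with counterparts of 3400 kb in CH12 cells and 3080 kb in MEFs. The MEF map differed in its rank order, since its E domain over chr17:78720001-81500000 (2780 kb, *Fez2* to *Thumpd2*), among the 3 longest in MEFs, was divided between states in both B cell maps.

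Late replication was most alike at the distal end. The terminal L domain measured 5760 kb in CH12 cells, 5660 kb in primary B cells and 5700 kb in MEFs, and 5600 kb of it was late in all 3 maps. This core, chr17:89400001-95000000, held 5 coding gene starts, from *Fshr*, the receptor for follicle-stimulating hormone, to *Adcyap1*, a neuropeptide precursor, and its GC content was 37.6%. From 90 Mb to the end of the chromosome, CH12 and primary B cells had the same state in 99.6% of bins. The L domain of 5100 kb from *Olfr93* to *Cenpq* in CH12 cells had a counterpart of 4780 kb in MEFs, and 222 of its 255 bins were also L in primary B cells, in L domains of 2440, 200 and 2040 kb with M domains between them. The L domain over chr17:57940001-63100000 (5160 kb) in primary B cells had 245 of its 258 bins L in CH12 cells and 185 in MEFs, and 3660 kb of it was late in all 3 maps in 2 stretches, the longer of 2580 kb, each with 0 coding gene starts. The L domain of vomeronasal receptors, chr17:18200001-20960000 in primary B cells (2760 kb) and chr17:18280001-21180000 in MEFs (2900 kb), was late in all 3 maps over 2540 kb in 2 stretches. The longest M domain outside the unknown bases at the chromosome start lay in MEFs over chr17:6400001-9380000 (2980 kb), and in primary B cells over chr17:43160001-45360000 (2200 kb, *Gpr110* to *Runx2*). Other long M domains were chr17:10140001-12160000 in MEFs (2020 kb, *Qk* to *Park2*), chr17:3000001-4760000 (1760 kb) and chr17:20960001-22680000 in primary B cells (1720 kb, 36 starts from *Vmn1r230* to *Zfp946*) and chr17:85040001-86140000 in CH12 cells (1100 kb, *Abcg8* to *Six2*).

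The next comparison was of the maps with each other. CH12 and primary B cells differed in 884 of 4614 shared bins, or 19.2%, against 23.9% over all 20 chromosomes. Cohen's kappa, the agreement beyond that given by the state shares, was 0.709 and was also the highest of the autosomes. Agreement on the other 18 autosomes was 75.8% ± 3.72 (SD, n = 18 chromosomes), and the lowest was 68.0% on chromosome 13. CH12 cells and MEFs differed in 31.7% of bins on chromosome 17 against 36.5% over the genome, and primary B cells and MEFs in 31.8% against 31.4%. Chromosome 17 was thus number 4 of 19 in agreement of CH12 cells with MEFs and number 10 in agreement of primary B cells with MEFs, a place that became 15 without the longest E domain and L domain of every autosome. The value for CH12 cells and MEFs counts the unknown bases of the first 3 Mb, called M in both maps, as agreement. Without the first 3 Mb, CH12 cells and MEFs had the same state in 67.3% of bins, and primary B cells and MEFs in 68.2%. Set against the genome-wide rate at which each CH12 state was kept in primary B cells, the state make-up of chromosome 17 alone gave 78.1%, so the observed value was 2.78 percentage points above it, behind chromosome 12 with 3.31. The first place depended on how states were counted. Chromosome 17 was number 3 with M joined to E, number 2 with M joined to L and number 3 when the longest E domain and the longest L domain of every autosome were left out.

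**Figure D2:**
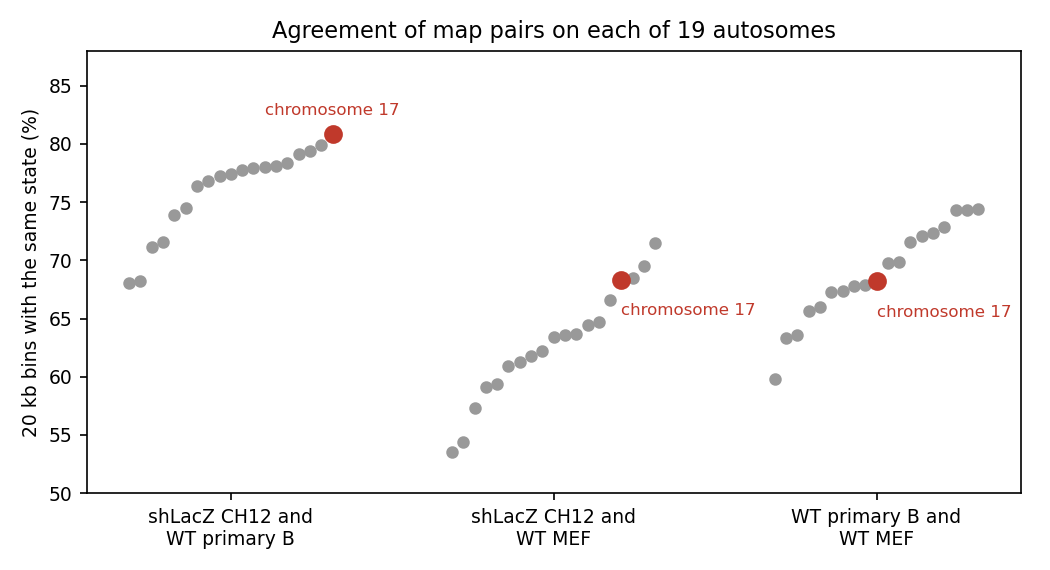
Percentage of 20 kb bins with the same state (y axis, which starts at 50%) for each of 19 autosomes, in order of value within each pair of maps on the x axis; 1 point is 1 chromosome and chromosome 17 is red. Chromosome 17 is at the top for CH12 and primary B cells (80.8%), number 4 for CH12 cells and MEFs (68.3%) and number 10 for primary B cells and MEFs (68.2%).

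Most bins that differed between the B cell maps were earlier in primary B cells. Of the 884 bins, 704 were earlier in primary B cells and 180 later, or 79.6% earlier, against 84.9% over the genome, and on each of the 20 chromosomes most differing bins were earlier in primary B cells. The paper, by contrast, describes from its RT values fewer early and more mid-replicating domains in WT primary B cells than in shLacZ CH12 cells. A step between states therefore need not mean earlier replication. E bins of CH12 cells stayed E in 92.0% of cases, against 90.8% over the genome. M bins stayed M in 74.6% against 67.7%, and moved to E in 19.3% against 26.5%. L bins stayed L in 75.6% against 73.6%. Changes across both steps were rare, as over the genome. From L to E there were 23 bins in 1 run, 1.08% of L bins against 1.26% over the genome. From E to L there were 0 of 1532 bins, which allows a share of up to 0.196% by counting error alone, against 0.0767% over the genome.

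Bins near a domain edge differed more often than bins inside domains, which holds in part by construction, since each run of difference ends at an edge of either map. Within 100 kb of an edge in either map, CH12 and primary B cells had the same state in 57.1% of bins, between 100 and 300 kb in 79.4%, and farther than 300 kb in 98.7%, where 26 of 1995 bins differed. Smoothing of the RT values with a span of 300 kb blurs edges on this scale. CH12 cells and MEFs differed also inside domains, with 88.1% agreement farther than 300 kb from an edge, and primary B cells and MEFs had 86.3%. The 88.1% counts bins of unknown bases at the chromosome start, M in both maps, as agreement. Edges of E domains were matched more often than edges of L domains: 23 of 40 E edges of the CH12 map lay within 100 kb of an E edge of primary B cells and 11 of 52 L edges did so. At 50% reciprocal overlap 14 of 20 E domains of CH12 cells had a counterpart in primary B cells, and 10 of 20 in MEFs. Along the chromosome, agreement of the B cell maps was lowest in the first 10 Mb (68.9%), was 87.6% from 20 to 30 Mb and 89.2% from 30 to 40 Mb, and fell again to 71.0% from 40 to 50 Mb.

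The longest run earlier in primary B cells lay over *Satb1*, a chromatin organiser and transcription factor of lymphocytes. The run chr17:51660001-52800000 (1140 kb, 40.6% GC) was L throughout in CH12 cells, as part of an L domain of 1860 kb. In primary B cells an E domain of 460 kb, chr17:51960001-52420000, lay inside it between M domains, and this was the only run with L in CH12 cells and E in primary B cells. *Satb1* was the only coding gene to start there. Its start was L in CH12 cells, E in primary B cells and M in MEFs, and of the 23 bins of the E domain 5 were M and 18 L in MEFs. No other coding gene entry of the chromosome had the combination L, E, M.

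The next 4 runs in length were each L in CH12 cells and M in primary B cells. The run chr17:3740001-4720000 (980 kb) held 0 coding gene starts. The run chr17:43180001-43920000 (740 kb) held 7 genes, among them *Gpr110*, *Gpr116* and *Mep1a* at its start and *Tdrd6*, *Slc25a27* and *Cyp39a1* at its end, and 12 of its 37 bins were E in MEFs. The run chr17:10120001-10700000 (580 kb) held *Qk*, an RNA-binding protein gene known from myelination. The run chr17:21880001-22440000 (560 kb) held 7 gene starts of a zinc finger cluster, among them *Zfp820*, *2210404O09Rik* and *Zfp942* at its start and *Gm9772*, *Gm7052* and *Zfp947* at its end. In all, 63 runs were earlier in primary B cells and 13 of them reached 300 kb. Those of M in CH12 cells and E in primary B cells among these were chr17:4760001-5240000 (480 kb, *Arid1b*) and chr17:74240001-74600000 (360 kb, *Xdh* and *Srd5a2*).

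In the opposite direction 23 runs were later in primary B cells and 3 reached 300 kb. The longest was chr17:44380001-44960000 (580 kb), E in CH12 cells and M in primary B cells, where *Runx2*, the transcription factor of bone formation, and *Supt3h*, a subunit of the SAGA coactivator complex, start. In MEFs 25 of its 29 bins were E and 4 M, and both gene starts fell in the M part. The run chr17:75180001-75680000 (500 kb) held the start of *Ltbp1*, which binds latent TGF beta, and was E in CH12 cells and MEFs and M in primary B cells. The run chr17:86140001-86500000 (360 kb) held 0 coding gene starts and was M in MEFs. The next were chr17:42380001-42620000 (240 kb, *3110082D06Rik*), chr17:15200001-15420000 and chr17:69840001-70060000 (220 kb each, 0 coding gene starts).

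Taking the 3 maps together, 2736 of 4614 bins, or 59.3%, had the same state in each, against 55.0% over the genome. Of these 1160 were E, 1124 L and 452 M. The B cell maps shared a state that MEFs did not have in 21.5% of bins, close to 21.0% over the genome. Primary B cells and MEFs shared a state that CH12 cells did not have in 8.89% against 13.6%, and CH12 cells and MEFs shared one that primary B cells did not have in 7.98% against 7.81%. The lower share of bins in which CH12 cells stood alone is part of the agreement by which the chromosome was selected.

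**Figure D3:**
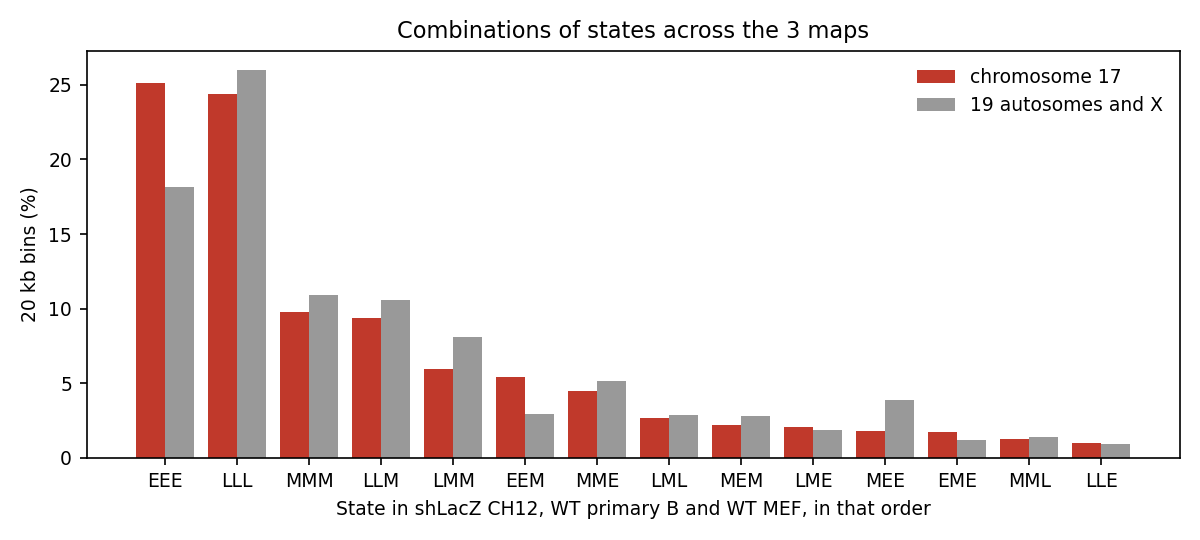
Percentage of 20 kb bins (y axis, from 0) with each combination of states on chromosome 17 and over 19 autosomes and X; the letters on the x axis give CH12, primary B cells and MEFs in that order, for the 14 most common combinations on chromosome 17. EEE (25.1% against 18.1%) and EEM (5.42% against 2.95%) were more common on chromosome 17, and MEE (1.78% against 3.87%) was less common.

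Bins early in both B cell maps and middle in MEFs made up 250 bins, 5.42% of the chromosome against 2.95% of the genome, the highest share among the autosomes (chromosome 6 was next with 4.40%). The agreement of the B cell maps on E that this share contains was used in the selection. Of the 1410 bins early in both B cell maps, 0 were late in MEFs, which allows up to 0.213%. Over the genome this combination was also rare, with 51 of 128935 bins. The longest such run of E against M was chr17:50000001-50820000 (820 kb) with *Rftn1*, which encodes raftlin, a lipid raft protein of B cells, *AY702103*, *Dazl*, a germ cell RNA-binding protein gene, and *Plcl2*, a phospholipase C-like regulator of B cell receptor signalling. The run chr17:30660001-31420000 (760 kb) held 12 starts, *Btbd9*, *Glo1* and *Dnahc8* first and *Tmprss3*, *Ubash3a* and *Rsph1* last. The run chr17:7940001-8660000 (720 kb) held 11 starts, *Fndc1*, *Tagap* and *Rsph3a* first and *Sft2d1*, *Prr18* and *T* last, and *Ccr6*, the chemokine receptor for CCL20 on B and T cells, lay between. It was an E domain of its own in CH12 cells, at 46.3% GC, within the M domain of 2980 kb of the MEF map.

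Late in both B cell maps and early in MEFs were 46 bins in 3 runs, 0.997% of the chromosome against 0.914% of the genome. The run chr17:14000001-14680000 (680 kb, 45.6% GC) held the starts of *Gm7168*, *Gm7356*, *Gm7358*, *Dact2*, an antagonist of WNT and TGF beta signalling, and *Smoc2*, a secreted matrix protein. In CH12 cells it was the main part of an L domain of 860 kb, in primary B cells it was an L domain with exactly these limits, and in MEFs it lay inside an E domain of 2000 kb. The run chr17:64380001-64600000 (220 kb) lay within *Fer*, a tyrosine kinase gene, with 0 coding gene starts. The last, chr17:66940001-66960000, was a single bin with the start of *9130404H23Rik*.

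Genes were placed by the state at their start. The annotation had 1091 protein-coding entries on the chromosome with 1079 distinct names, since a few genes such as *Park2* and *Psmb9* have several entries. Of these entries 64.8% started in E in CH12 cells, 68.5% in primary B cells and 65.4% in MEFs, against 50.6%, 58.0% and 58.6% over the genome. CH12 and primary B cells gave the same state to 957 entries (87.7%, against 78.5% over the genome), CH12 cells and MEFs to 828 (75.9% against 70.1%) and primary B cells and MEFs to 867 (79.5% against 75.0%). From CH12 to primary B cells 119 entries were earlier and 15 later. All 3 maps shared the state of 788 entries, and 616 of them were E.

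MHC class II and peptide loading genes were early in each map. All 9 MHC class II entries, from *H2-Oa* to *H2-Eb2* and including *H2-Aa* and *H2-Ab1*, which form the I-A heterodimer, started in E in the 3 maps, and so did the peptide transporter genes *Tap1* and *Tap2*, *Tapbp* and the immunoproteasome genes *Psmb8* and *Psmb9*. The neighbouring tumour necrosis factor genes *Tnf*, *Lta* and *Ltb*, the complement genes *C2*, *C4b* and *Cfb* and the heat shock genes *Hspa1a*, *Hspa1b* and *Hspa1l* were E in each map, and of this list the complement gene *C3*, at a distant site, was M in MEFs. For comparison, 56.5% of all coding entries were E in the 3 maps. Apart from *C3*, the entries named here lie in the same E domain in each map, so they are not independent of each other.

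The MHC class I genes changed state along the chromosome. The 12 entries from *H2-K1*, a classical class I gene, to *H2-T9* were E in each map. The next 4, *H2-T3*, *H2-M10.2*, *H2-M10.1* and *H2-M10.3*, were M in CH12 cells and MEFs and E in primary B cells. *H2-M10.4*, *H2-M11*, *H2-M9* and *H2-M1* followed as L in CH12 cells and M in both other maps. *H2-M10.5* and *H2-M10.6* were M in each map, and *H2-M5* was M in both B cell maps and E in MEFs. *H2-M3*, which presents formylated peptides, was again L in CH12 cells and M in both other maps, and the last, *H2-M2*, was L in each. The distal limit of the E domain that held the class II genes thus lay 220 kb farther out in primary B cells (36540000) than in CH12 cells (36320000), and 40 kb farther in CH12 cells than in MEFs (36280000). Of 25 class I entries 16 had the same state in both B cell maps, and the 9 others were all earlier in primary B cells. Over all coding entries 87.7% had the same state in both B cell maps, and 119 of the 134 others were earlier in primary B cells. The 9 entries share a few runs of difference, so they are not independent of each other.

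A list of 12 genes with roles in lymphocytes, chosen by hand and without the MHC and TNF cluster genes above, had more M starts in MEFs than in B cells. Of these 12 genes, 10 started in E in CH12 cells, 12 in primary B cells and 3 in MEFs, where the other 9 were M. *Ccr6*, *Rftn1*, *Plcl2*, the TNF family ligand genes *Tnfsf9*, *Cd70* and *Tnfsf14*, and *Vav1*, a guanine nucleotide exchange factor of antigen receptor signalling, were E in both B cell maps and M in MEFs. This combination held for 7 of the 12 genes and for 82 of the 1091 coding entries (7.52%). The list was chosen with earlier results of these data known, so no enrichment can be read from these counts. *Pim1*, *Nfkbie* and *Ebi3* were E in the 3 maps. *Tnfrsf21*, encoding death receptor 6, was M in CH12 cells, E in primary B cells and M in MEFs. The run chr17:57240001-57620000 (380 kb) held *Tnfsf9*, *Cd70*, *Tnfsf14*, *C3* and *Vav1* together, so these genes are not independent of each other. The same holds for *Rftn1* and *Plcl2*, which share the run chr17:50000001-50820000 (820 kb).

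Ribosomal protein genes and genes of the cell cycle and genome maintenance mostly had the same state in the 3 maps. This held for 7 of 7 and 14 of 15 entries, against 72.2% of all coding entries. Several entries share a domain and are not independent of each other, such as *Rps2*, *Rpl10a* and *Cdkn1a* in the E domain of 6660 kb of CH12 cells. All 7 ribosomal protein entries (such as *Rps2*, *Rpl10a* and *Rps18*) were E in the 3 maps. Of 15 genes of the cell cycle and genome maintenance, 13 were E in both B cell maps and in MEFs, among them *Cdkn1a*, the p21 inhibitor of cyclin-dependent kinases, *Ccnd3*, a D-type cyclin gene, *Chaf1a*, a chromatin assembly factor gene, and *Msh6*, a mismatch repair gene. *Sgol1*, the protector of centromeric cohesion, was M in each map, and *Ppp2r1a*, a scaffold subunit of protein phosphatase 2A, was M in both B cell maps and L in MEFs.

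Genes with roles in other lineages were spread over the states. In this list of 20 genes (22 entries), 9 entries were E in CH12 cells, 7 in primary B cells and 8 in MEFs, and 9, 8 and 3 were L. Over all coding entries of the chromosome 64.8%, 68.5% and 65.4% were E in the same order of maps. The late share also fell over all coding entries, from 17.2% in CH12 cells to 11.3% in primary B cells and 10.4% in MEFs. This list too was chosen with earlier results of these data known. *Ptprm*, an adhesion phosphatase gene, *Lama1*, a laminin gene, *Slc8a1*, the cardiac sodium and calcium exchanger gene, and *Park2*, the ubiquitin ligase gene, were L in both B cell maps and M in MEFs, whereas *Fshr* and *Dlgap1* were L in each map. *Ptprm* and *Lama1* share a run of 1920 kb, so they are not independent of each other. L in both B cell maps and M in MEFs held for 18 of the 1091 coding entries (1.65%). *Vegfa*, *Epas1*, *Col11a2*, *Tnxb*, *Pkdcc* and *Dll1* were E in each map. *Thbs2*, which encodes the matrix protein thrombospondin 2, was M in both B cell maps and E in MEFs, *Crim1* was L in CH12 cells and M in both other maps, and *Pde10a* was M in CH12 cells, E in primary B cells and M in MEFs. *Alk* and *Lhcgr* were M in each map.

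The imprinted *Igf2r* cluster differed as a block. *Igf2r*, the receptor that clears insulin-like growth factor 2, and its neighbour *Mas1* were E in each map, while the adjoining *Slc22a2* and *Slc22a3*, which encode organic cation transporters, and *Plg*, the plasminogen gene, were M in both B cell maps and E in MEFs.

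Most vomeronasal and olfactory receptor entries were late. Over all coding entries of the chromosome 17.2% were L in CH12 cells, 11.3% in primary B cells and 10.4% in MEFs. Of 43 vomeronasal receptor entries, 34 were L in CH12 cells, 28 in primary B cells and 32 in MEFs, with 0 in E in each map. Of 49 olfactory receptor entries 43 were L in CH12 cells, 33 in primary B cells and 32 in MEFs, and 3 started in E in primary B cells, among them *Olfr55*. The formyl peptide receptor genes *Fpr1*, *Fpr2*, *Fpr3* and *Fpr-rs4* were L in CH12 cells and M in both other maps, and *Fpr-rs3*, *Fpr-rs6* and *Fpr-rs7* were L in each. Of 44 zinc finger entries 17 were E in CH12 cells, 22 in primary B cells and 11 in MEFs, and from *Zfp871* to *Zfp101* 10 of 12 were E in both B cell maps and M in MEFs. These families hold near-identical copies, and uniquely aligned reads can be scarce in them, which was not measured in the files. The bars of states by gene list show these families beside the uniformly early lists.

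**Figure D4:**
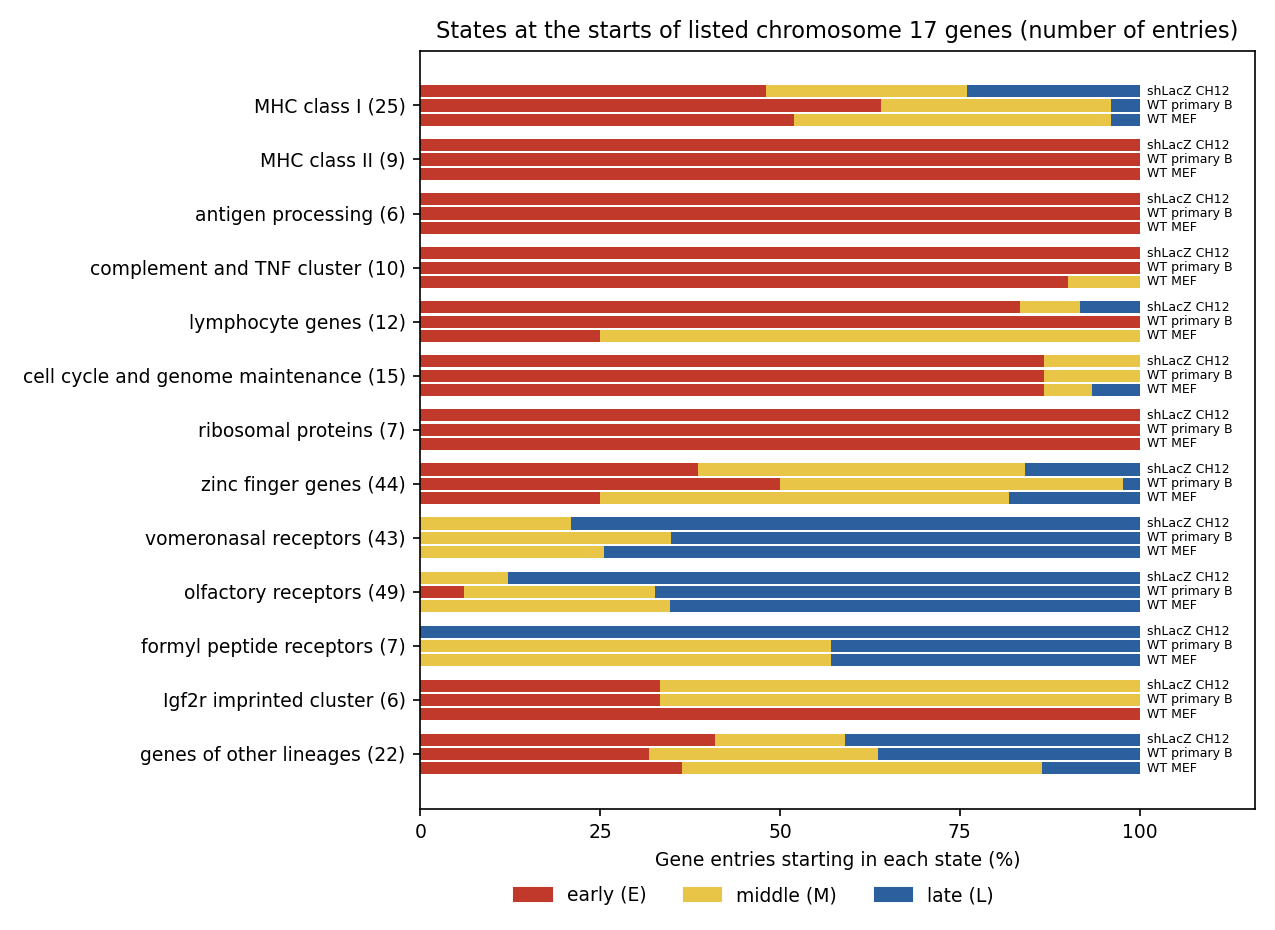
Percentage of gene entries (x axis, from 0 to 100%) that start in E, M or L, for 13 lists with the number of entries in parentheses, with 1 bar for each of the 3 maps. The 9 MHC class II entries are early in each map, the 12 lymphocyte genes are early in 10, 12 and 3 cases in CH12, primary B cells and MEFs, and the vomeronasal and olfactory receptors are mostly late.

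Base composition, which the selection did not use, followed the states. The median GC content of bins in CH12 cells was 46.9% for E, 42.8% for M and 39.1% for L, compared with 46.7%, 42.4% and 38.4% in primary B cells, and 46.2%, 42.5% and 38.0% in MEFs. Bins early in all 3 maps had a median of 47.6% (10th to 90th percentile 42.5 to 52.5%) with 26.6 coding gene starts per Mb, and bins late in all 3 had 37.7% (35.4 to 40.6%) with 4.14. Bins that were E in both B cell maps and M in MEFs had 45.7% and 16.4 starts per Mb. The 46 bins late in both B cell maps and early in MEFs had 45.3%, above the 39.1% of the late bins of CH12 cells as a whole, and within the 10th to 90th percentile range of the early bins. Bins late in CH12 cells and middle in both other maps had 41.9% and 8.70 starts per Mb, between the values of bins that were M in each map (42.3%, 8.86) and L in each map. These are descriptions over bins of 1 chromosome with no test.

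**Figure D5:**
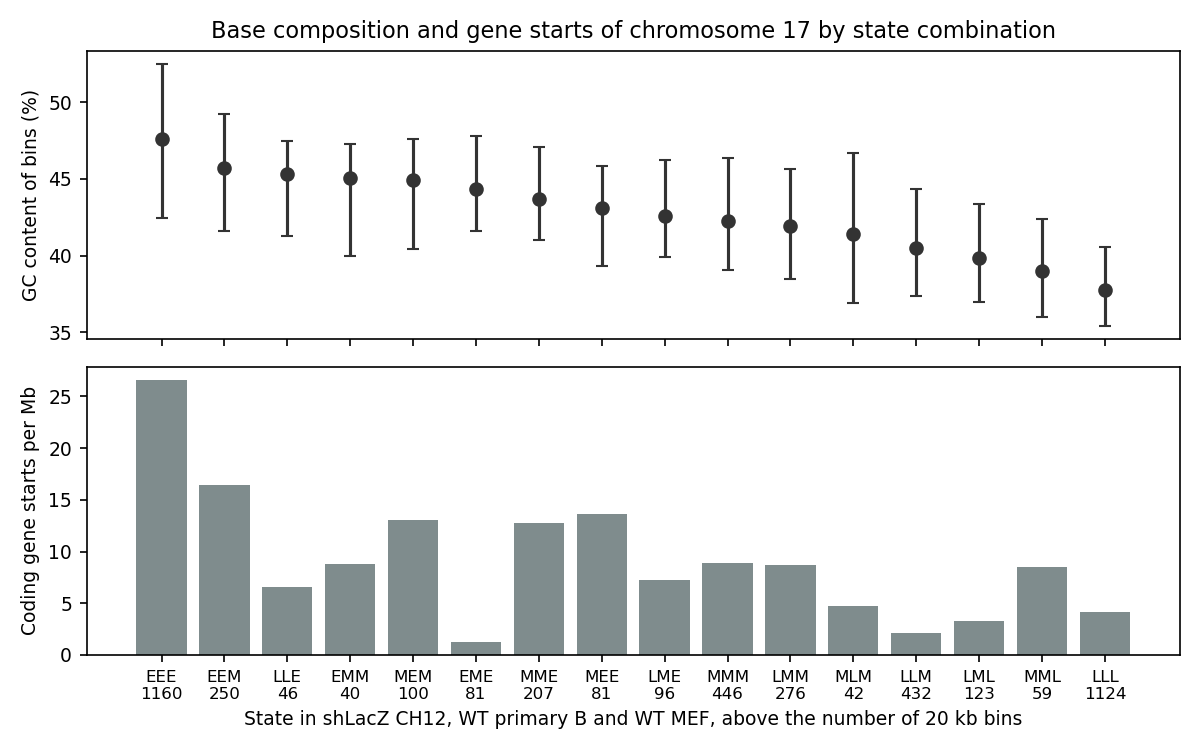
GC content of 20 kb bins (upper panel, median with bars from the 10th to the 90th percentile) and coding gene starts per Mb (lower panel, from 0) for combinations of states with at least 40 bins, ordered by GC; the letters give CH12, primary B cells and MEFs. EEE is highest in both panels (47.6%, 26.6 per Mb) and LLL has the lowest GC (37.7%).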

How the data were processed

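The deposited domain maps list domain limits with a state number, which is a label without a unit. Per the methods, reads were trimmed with Trim Galore 0.6.5, aligned to mm9 with bwa mem 0.7.17 and filtered for unique alignments with SAMtools 1.9. The authors merged replicates, removed duplicates, computed log2 early over late in 20 kb bins with deepTools, smoothed it by loess over 300 kb and called 3 states with a hidden Markov model, so that replicate spread is lost and edges are blurred. The methods give this state calling for all conditions without naming MEFs, and the steps before it are not given for the MEF map in the sources used here.

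Groups came from the sample titles, and 5 of 7 groups were not analysed here. State numbers were read as 2 E, 1 M and 0 L in the B cell maps and 0 E, 2 M and 1 L in the MEF map. The last domain ended at 95272651, the NCBIM37 length, in all 3 maps. Genes were taken from GENCODE M1 and placed by their start. The chromosome, regions and gene lists were chosen with earlier results of these data known. Regions named were the 3 longest domains of each state and map, the 5 longest runs of difference between the B cell maps in each direction, every run from E to L or L to E between them, and the 3 longest runs where MEFs differed from both by 2 states, or by 1 where there was none. Genes named were list members, those starting in these runs (the first and last 3 beyond 6) and those at the ends of the longest E domains of primary B cells; further domains, runs and genes were named after their values were seen, and some items under this rule are not reported here. Functions were tested on simulated data. Python 3.11.15, numpy 2.4.6, scipy 1.17.1 and matplotlib 3.10.9 were used.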

Additional observations from a re-analysis of the deposited data

How the results depend on the processing

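No paired analysis was possible because each condition has 1 map, made from merged replicates. Of 135 values under alternatives, 92 stayed within the Wilson interval of the reported share, within 1.5 times the reported count or within the spread of GC over bins, and 43 moved. The 43 include the kappa of each pair, which was set against a percentage and so moved by its scale alone. They also include the runs of at least 300 kb, which are a subset of all runs. The 43 is therefore not a count of results that shifted. Without the first 3 Mb and without bins of unknown bases, the middle share became 20.8% and 20.7% in CH12 cells and 34.7% and 34.6% in MEFs, and the late share of CH12 cells 45.9% and 46.1%. Agreement of CH12 and primary B cells was 91.5% without bins within 100 kb of an edge, 87.5% with M joined to E, 92.8% with M joined to L and 78.0% when the longest E domain and the longest L domain of every autosome were left out, an alternative chosen after seeing the data. The same settings gave 76.1%, 80.5%, 84.8% and 63.7% for CH12 cells and MEFs, and 74.8%, 84.2%, 82.5% and 63.3% for primary B cells and MEFs. Kappa was 0.709, 0.531 and 0.524 in that order of pairs. The place of chromosome 17 among the autosomes changed from 1 to 3 with M joined to E, 2 with M joined to L and 3 without the longest domains for the B cell maps, from 4 to 2 and 7 with M joined to E and to L for CH12 cells and MEFs, and from 10 to 6 with M joined to E, 12 with M joined to L and 15 without the longest domains for primary B cells and MEFs. At an edge tolerance of 40 kb, 14 E edges and 5 L edges of CH12 cells were matched in primary B cells, 7 E and 3 L edges in MEFs, and 2 L edges of primary B cells in MEFs. At 200 kb, 25 L edges of CH12 cells were matched in primary B cells and 20 E edges in MEFs. With any overlap, 16 E domains of CH12 cells and 17 of primary B cells had a counterpart in MEFs, and at 80% reciprocal overlap 4 of primary B cells did. Runs of at least 300 kb numbered 13 earlier and 3 later in primary B cells than in CH12 cells, 26 earlier and 9 later in MEFs than in CH12 cells, and 18 earlier and 15 later in MEFs than in primary B cells. The cause of these shifts was not tested beyond what each setting leaves out.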
